A study of Homo sapiens with 24 samples.

Results

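The AMP-activated protein kinase (AMPK) genes and the genes of the kinases that switch AMPK on were followed through 24 RNA-seq libraries of 3 human leukaemia cell lines. The set held 10 genes, taken by their symbols, of 25728 symbols in the count files. They were the catalytic alpha subunits PRKAA1 and PRKAA2, the scaffold beta subunits PRKAB1 and PRKAB2, the nucleotide-sensing gamma subunits PRKAG1 and PRKAG2, the LKB1 complex (STK11, STRADA and CAB39) and CAMKK2. All 10 symbols were found, and 9 passed the filter on low counts. PRKAA2 did not pass, with 40 counts in all 24 libraries together.

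AMPK is a heterotrimer of 1 alpha, 1 beta and 1 gamma subunit, and each subunit type is encoded by more than 1 gene. It acts when AMP or ADP builds up relative to ATP: the gamma subunit binds these nucleotides, and an upstream kinase phosphorylates the activation loop of the alpha subunit. The main upstream kinase is LKB1 (gene STK11), which needs the pseudokinase STRAD-alpha (STRADA) and the scaffold MO25-alpha (CAB39) to be active, and CaMKK2 (CAMKK2) is a calcium-dependent alternative. AMPK is regulated mostly by phosphorylation and nucleotide binding, and RNA levels do not report either. Cyclocreatine is a creatine analogue that creatine kinase can phosphorylate and that buffers ATP poorly, and the balance of ATP against AMP is what AMPK senses.

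The lines were TF-1, an erythroleukaemia line, UT-7, a megakaryoblastic leukaemia line, and UCSD-AML1, an acute myeloid leukaemia line. Cells of each line took 24 h of cyclocreatine at 3 mM, or of vehicle. Each of the 6 groups had 4 libraries, and all libraries were made from RNA of cultured cells with no other agent named in the labels. The labels describe the treatments as done in quadruplicate but not whether each came from its own culture, so the p-values measure the spread between these libraries, which may be technical. Each line is 1 established line, and a difference between lines is a difference between those 3 lines. In bulk RNA, fewer cells of a kind and less RNA per cell cannot be told apart. The study is about leukaemia with EVI1, the product of MECOM. MECOM averaged 339 CPM (counts scaled to a common library size) with cyclocreatine and 412 CPM with vehicle in UCSD-AML1, 10.8 CPM with cyclocreatine and 13.0 CPM with vehicle in TF-1, and 3.78 CPM with cyclocreatine and 6.34 CPM with vehicle in UT-7. Of the 7 progenitor and myeloid markers checked, PTPRC (CD45) and CD33 were present in every group. CD34 was low in UT-7, at 2.78 CPM with cyclocreatine and 2.19 CPM with vehicle. The B cell marker MS4A1 had 0 counts in all groups, but other lymphoid, epithelial and stromal markers were not all absent. Summed over 4 libraries, stromal PDGFRB had 3800 counts with cyclocreatine and 4395 with vehicle in UCSD-AML1. Lymphoid CD3E had 118 and 172 there, and epithelial CDH1 had 1042 and 1272 in UT-7.

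Library totals ran from 12794998 to 21200662 counts, so 3 counts, the most that a count of 0 allows, stood for 0.150 to 0.231 CPM. Such limits cover counting error only. One library stood apart: TF-1 cyclocreatine replicate 1 lay at 38.3 on the second principal component of its line (13.0% of the variance), against -20.6 to -10.5 for the other 3 cyclocreatine libraries. Ribosomal protein genes took a larger share of the counts with cyclocreatine in every line. The share was 7.75 to 9.35% with cyclocreatine against 5.77 to 6.02% with vehicle in TF-1, 6.41 to 6.94% against 5.49 to 5.70% in UT-7, and 6.63 to 6.83% against 5.60 to 5.82% in UCSD-AML1. The 9.35% was that of TF-1 cyclocreatine replicate 1, and the other cyclocreatine libraries of TF-1 had 7.75 to 7.79%. The part of this share in the results below was not tested.

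Among the subunit genes, PRKAG2, PRKAG1, PRKAB1 and PRKAA1 were each called in the same direction in all 3 lines, and their promoters are shown for that reason. Each sequence is the 250 bases before a transcription start in RefSeq (GRCh38.p14), read 5′ to 3′ on the strand of the gene. The stretches are chr7:151877116-151877365 on the minus strand for PRKAG2, chr12:49018777-49019026 on the minus strand for PRKAG1, chr12:119667883-119668132 on the plus strand for PRKAB1 and chr5:40798178-40798427 on the minus strand for PRKAA1. Capitals mark matches on either strand to the GC box GGGCGG, the ETS motif CCGGAAG and the CRE core TGACGT. The E-box CACGTG was also searched and had no match in these 4 stretches.
PRKAG2: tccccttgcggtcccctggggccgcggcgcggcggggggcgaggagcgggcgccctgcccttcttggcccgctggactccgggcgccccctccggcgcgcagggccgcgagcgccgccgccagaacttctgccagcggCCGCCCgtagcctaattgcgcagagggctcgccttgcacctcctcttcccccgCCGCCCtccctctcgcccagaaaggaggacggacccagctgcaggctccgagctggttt
PRKAG1: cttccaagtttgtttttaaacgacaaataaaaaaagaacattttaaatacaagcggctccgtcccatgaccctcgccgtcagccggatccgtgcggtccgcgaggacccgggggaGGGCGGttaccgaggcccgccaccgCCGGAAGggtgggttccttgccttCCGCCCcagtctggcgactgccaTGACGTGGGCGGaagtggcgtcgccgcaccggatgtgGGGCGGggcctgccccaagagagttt
PRKAB1: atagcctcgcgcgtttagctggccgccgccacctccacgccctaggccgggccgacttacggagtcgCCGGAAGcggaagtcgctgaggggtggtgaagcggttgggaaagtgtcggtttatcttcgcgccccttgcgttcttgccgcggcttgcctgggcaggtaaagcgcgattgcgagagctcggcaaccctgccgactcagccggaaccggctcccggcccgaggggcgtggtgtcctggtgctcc
PRKAA1: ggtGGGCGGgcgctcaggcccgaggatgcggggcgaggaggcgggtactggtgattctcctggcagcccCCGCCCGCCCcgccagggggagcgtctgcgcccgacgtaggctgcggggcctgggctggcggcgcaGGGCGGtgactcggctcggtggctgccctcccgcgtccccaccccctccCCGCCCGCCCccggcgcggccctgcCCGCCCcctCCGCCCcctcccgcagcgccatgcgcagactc
PRKAG1 held 4 GC boxes, 1 ETS match and 1 CRE core, the last directly beside a GC box. PRKAG2, for which this is the first of 5 RefSeq starts, held 2 GC boxes at that start. PRKAB1 held 1 ETS match and no GC box, and PRKAA1 held 8 GC boxes, among them 2 overlapping pairs. Over all 35116 promoters in the RefSeq table, 42.64% held a GC box, 8.52% the ETS motif, 7.1% the CRE core and 6.34% the E-box. GC content was 75.6% for PRKAG2, 62.0% for PRKAG1, 67.6% for PRKAB1 and 80.8% for PRKAA1. The counts do not tell which PRKAG2 start was used. A match describes the letters and is no evidence of binding.

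Cyclocreatine changed most of these genes in every line, by small amounts with 1 exception. PRKAA1, PRKAB1, PRKAG2 and CAB39 fell and PRKAG1 rose in all 3 lines. Calling the same direction in all lines was met by 5 of the 9 tested members, and by 17.7% of the 14588 tested genes. In TF-1, 3 members rose and 4 fell, where 26.7% of all tested genes rose and 29.3% fell. UT-7 had 1 member higher and 6 lower, beside 22.5% of genes higher and 23.3% lower. UCSD-AML1 had 2 members higher and 5 lower, beside 19.1% of genes higher and 21.3% lower. The share of members called higher was somewhat above that of all genes in TF-1 and UCSD-AML1 and below it in UT-7, and the share called lower was above it in all 3 lines. These gaps, and the share with the same direction in all lines, rest on 9 genes chosen with earlier results of these data known. The tested genes were not matched to the members in expression level, and no gap was tested. The 4 cyclocreatine libraries did not overlap the 4 vehicle libraries for 7 members for TF-1, 8 for UT-7 and 7 for UCSD-AML1, which happened for 40.2%, 47.4% and 44.2% of tested genes in TF-1, UT-7 and UCSD-AML1. The median size of the members' log2 fold changes, sign aside, was 0.28 for TF-1, 0.23 for UT-7 and 0.18 for UCSD-AML1, against 0.28, 0.24 and 0.20 for all tested genes in TF-1, UT-7 and UCSD-AML1. The members thus moved by about as much as the typical gene, and PRKAG2 moved furthest in each line.

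**Figure D1:**
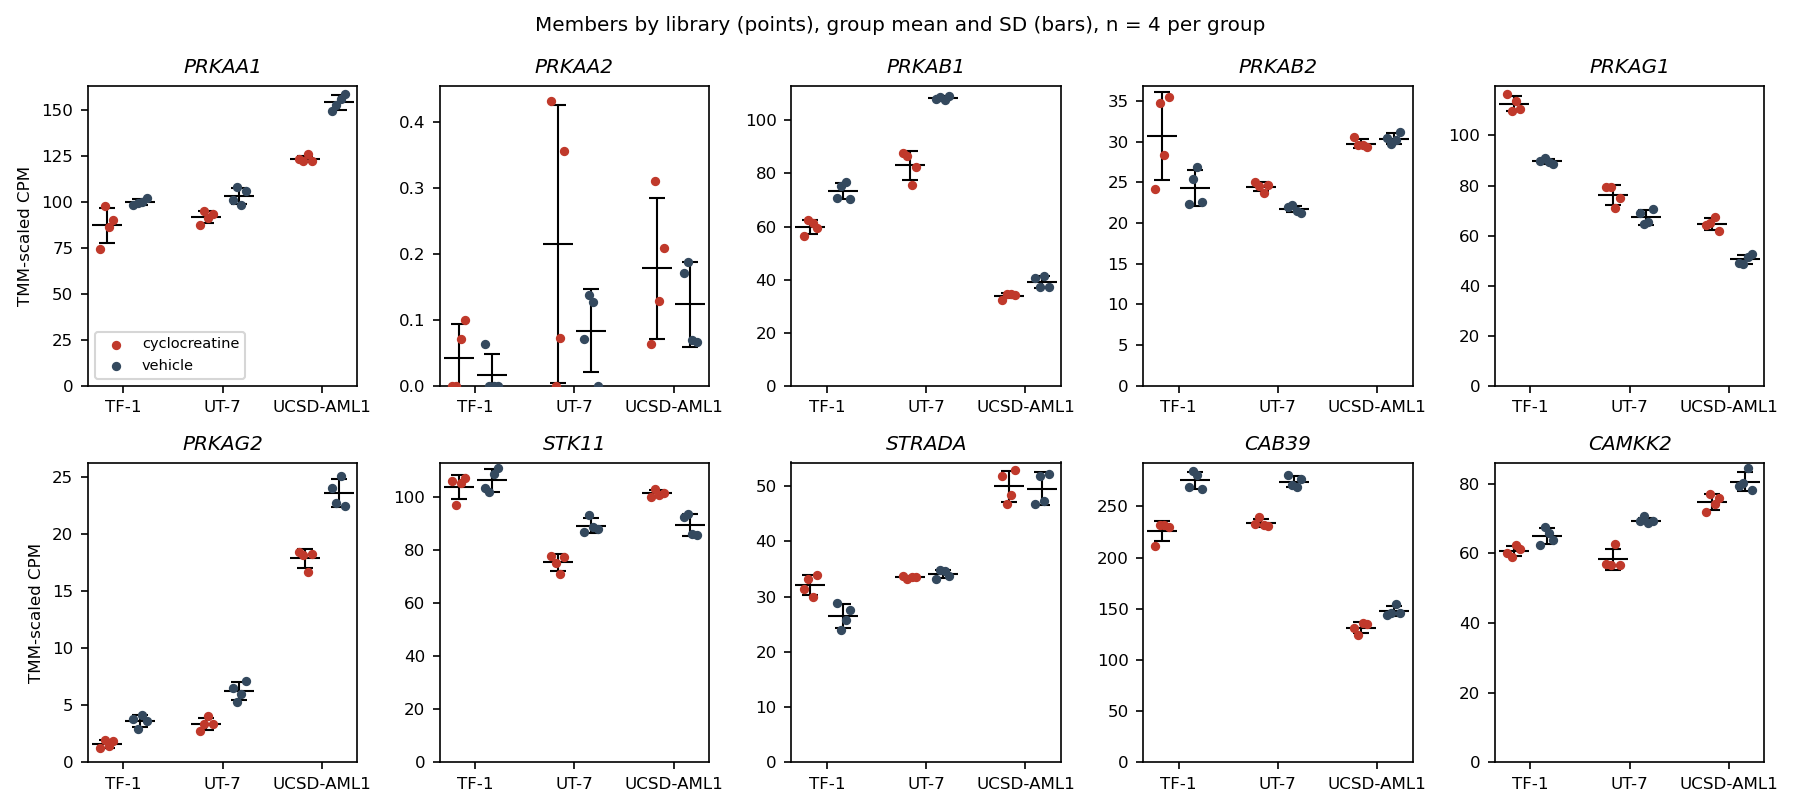
TMM-scaled CPM (y axis, from 0) of the 10 genes in each library, by line (x axis) and with cyclocreatine left of vehicle. Points are libraries, and bars give the group mean and SD of 4 libraries. The PRKAG2 points with cyclocreatine lie below those with vehicle in every line, the PRKAG1 points lie above, and PRKAA2 is at most 0.432 CPM in every library.

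The gamma subunits carried the largest change. PRKAG2 encodes gamma-2, the gamma subunit best known from inherited heart disease. In TF-1 it had 1.27, 1.96, 1.43 and 1.85 CPM in the cyclocreatine libraries, against 3.77, 2.96, 4.17 and 3.59 CPM in the vehicle libraries. In UT-7, PRKAG2 had 2.74, 3.39, 4.04 and 3.41 CPM with cyclocreatine, against 6.48, 5.31, 5.96 and 7.16 CPM with vehicle. In UCSD-AML1, it had 18.5, 18.2, 16.7 and 18.3 CPM with cyclocreatine, against 24.1, 22.8, 25.1 and 22.5 CPM with vehicle. Every cyclocreatine library was below every vehicle library of its line. The TF-1 values rest on few reads, 20 to 37 counts per cyclocreatine library and 44 to 70 per vehicle library. The fold was 2.22 lower with cyclocreatine in TF-1 (log2 fold change -1.15 ± 0.17 SE, adjusted p = 3.49e-07), 1.83 lower in UT-7 (-0.87 ± 0.14, adjusted p = 2.29e-06) and 1.32 lower in UCSD-AML1 (-0.40 ± 0.09, adjusted p = 3.88e-04). These and the following adjusted p-values come from edgeR's quasi-likelihood test with Benjamini-Hochberg adjustment over all 14588 tested genes, two-sided. Without TF-1 cyclocreatine replicate 1, the TF-1 value was -1.05 (adjusted p = 2.24e-06). An antisense transcript, PRKAG2-AS1, overlaps the gene, and no source used here gives the strand use of the counting, so reads of the antisense transcript cannot be told apart from those of PRKAG2.

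PRKAG1, which encodes gamma-1, the widely expressed gamma subunit, moved the other way. It had 116, 109.7, 114 and 111 CPM with cyclocreatine in TF-1, against 89.6, 90.9, 89.4 and 88.4 CPM with vehicle. Its UT-7 values were 79.3, 79.4, 70.9 and 75.0 CPM with cyclocreatine and 68.9, 64.5, 65.4 and 70.8 CPM with vehicle. UCSD-AML1 gave PRKAG1 values of 64.3, 65.1, 67.5 and 61.7 CPM with cyclocreatine and 49.0, 48.7, 51.5 and 52.7 CPM with vehicle. The groups did not overlap in any line, although the lowest UT-7 cyclocreatine library lay just above the highest vehicle library. PRKAG1 rose by 0.33 ± 0.04 on the log2 scale in TF-1 (SE, adjusted p = 3.88e-08), by 0.18 ± 0.05 in UT-7 (adjusted p = 0.00180) and by 0.36 ± 0.05 in UCSD-AML1 (adjusted p = 8.79e-08). Without TF-1 cyclocreatine replicate 1 the TF-1 rise was 0.31 (adjusted p = 2.89e-09).

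The gamma pair therefore shifted further toward PRKAG1 in every line. The log2 ratio of PRKAG2 over PRKAG1 inside a library, taken on CPM + 0.1, does not depend on library scaling apart from the pseudocount. It averaged -6.05 ± 0.32 with cyclocreatine and -4.60 ± 0.21 with vehicle in TF-1 (SD, n = 4 each), a difference of -1.45. For UT-7 the averages were -4.46 ± 0.29 with cyclocreatine and -3.42 ± 0.12 with vehicle, a difference of -1.04. For UCSD-AML1 they were -1.85 ± 0.11 with cyclocreatine and -1.09 ± 0.09 with vehicle, a difference of -0.75. Each group of cyclocreatine libraries lay wholly below its vehicle group. An exact two-sided permutation test over 70 arrangements gave p = 0.0286 in each line, the smallest value that 4 libraries against 4 can give (adjusted p = 0.0429 over the 9 ratio tests of this kind). In UCSD-AML1 the adjusted p was 0.0514 with any 1 of the 4 cyclocreatine libraries left out, where the difference ran from -0.78 to -0.70. The remaining groups still did not overlap, and the adjusted value depends on the other ratio tests as well. Per length of exon, PRKAG2 made up 0.640 ± 0.145% of the summed gamma level with cyclocreatine and 1.77 ± 0.25% with vehicle in TF-1. The share was 1.96 ± 0.40% with cyclocreatine and 3.93 ± 0.32% with vehicle in UT-7, and 11.0 ± 0.8% with cyclocreatine and 17.2 ± 0.9% with vehicle in UCSD-AML1. PRKAG1 thus supplied most of the gamma RNA in all 6 groups.

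**Figure D2:**
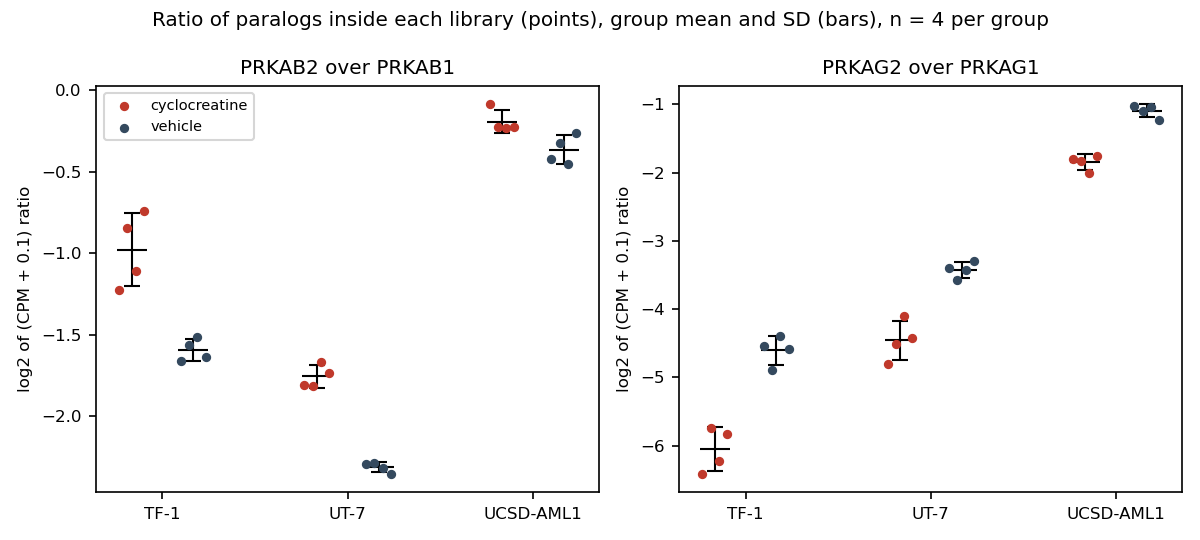
Log2 ratio of (CPM + 0.1) of PRKAB2 over PRKAB1 (left) and of PRKAG2 over PRKAG1 (right) in each library, by line (x axis) and with cyclocreatine left of vehicle. Points are libraries, and bars give the mean and SD of 4 libraries. With cyclocreatine the beta ratio is higher and the gamma ratio lower in every line, with no overlap between the groups of a line.

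The beta pair shifted too. PRKAB1, which encodes the scaffold subunit beta-1, had 56.6, 62.3, 61.3 and 59.5 CPM with cyclocreatine in TF-1, against 70.9, 75.1, 77 and 70.6 CPM with vehicle. PRKAB1 values in UT-7 were 87.6, 86.7, 75.6 and 82.3 CPM with cyclocreatine and 108, 109, 108 and 109 CPM with vehicle. UCSD-AML1 had the lowest PRKAB1 levels, 32.5, 34.6, 34.7 and 34.2 CPM with cyclocreatine and 40.8, 37.1, 41.3 and 37.4 CPM with vehicle. All cyclocreatine libraries were below all vehicle libraries of their line. PRKAB1 changed by -0.29 ± 0.05 on the log2 scale in TF-1 (SE, adjusted p = 3.85e-06), by -0.38 ± 0.05 in UT-7 (adjusted p = 1.73e-08) and by -0.20 ± 0.06 in UCSD-AML1 (adjusted p = 0.00297). Leaving out TF-1 cyclocreatine replicate 1 gave -0.27 in TF-1 (adjusted p = 3.43e-06).

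PRKAB2, which encodes beta-2, the form known as predominant in skeletal muscle, rose in TF-1. Its TF-1 values were 24.2, 34.7, 28.4 and 35.5 CPM with cyclocreatine and 22.3, 25.4, 26.9 and 22.6 CPM with vehicle. The groups overlapped there, because the library that stands apart, replicate 1, had the lowest cyclocreatine value. The log2 fold change in TF-1 was 0.34 ± 0.08 (SE, adjusted p = 4.22e-04), and 0.44 without that library (adjusted p = 1.18e-07). In UT-7, PRKAB2 ran from 23.7 to 25 CPM with cyclocreatine and from 21.3 to 22.2 CPM with vehicle, without overlap. That difference was 0.17 on the log2 scale (95% interval -0.0025 to 0.35, adjusted p = 0.102), and passed the threshold when only the UT-7 libraries were fitted (adjusted p = 0.0126) and when a trend with gene length was removed (adjusted p = 0.0473). In UCSD-AML1, PRKAB2 averaged 29.8 ± 0.6 CPM with cyclocreatine and 30.4 ± 0.6 CPM with vehicle (SD, n = 4 each), and the interval of the log2 fold change ran from -0.19 to 0.13 (adjusted p = 0.83).

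Inside each library, the ratio of PRKAB2 over PRKAB1 was higher with cyclocreatine. The log2 ratio averaged -0.98 ± 0.22 with cyclocreatine and -1.59 ± 0.07 with vehicle in TF-1 (SD, n = 4 each), a difference of 0.62. UT-7 averaged -1.76 ± 0.07 with cyclocreatine and -2.31 ± 0.03 with vehicle, a difference of 0.56. UCSD-AML1 averaged -0.19 ± 0.07 with cyclocreatine and -0.36 ± 0.09 with vehicle, a difference of 0.17. The exact permutation p was 0.0286 in each line, again the smallest possible (adjusted p = 0.0429). In UCSD-AML1 the adjusted p was 0.0857 with any 1 of the 4 cyclocreatine libraries left out, where the difference ran from 0.14 to 0.19. The remaining groups still did not overlap, and so few libraries allow only coarse permutation p-values. Per length, PRKAB2 made up 22.7 ± 2.7% of the summed beta level with cyclocreatine and 16.0 ± 0.7% with vehicle in TF-1. The share was 14.6 ± 0.6% with cyclocreatine and 10.4 ± 0.2% with vehicle in UT-7, and 33.6 ± 1.1% with cyclocreatine and 31.0 ± 1.3% with vehicle in UCSD-AML1.

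The catalytic subunit was almost all PRKAA1 (alpha-1) at the RNA level. PRKAA1 had 74.6, 98.1, 86.4 and 90.0 CPM with cyclocreatine in TF-1, against 98.5, 99.5, 100.04 and 102 CPM with vehicle. In UT-7, PRKAA1 had 87.8, 95.4, 91.5 and 93.3 CPM with cyclocreatine, against 101, 108, 98.3 and 106 CPM with vehicle. UCSD-AML1 libraries held 123, 122, 126 and 122 CPM of PRKAA1 with cyclocreatine and 149.6, 153, 156 and 159 CPM with vehicle. The groups did not overlap in any line, though in TF-1 the highest cyclocreatine library lay just below the lowest vehicle library. The log2 fold change was -0.20 ± 0.05 in TF-1 (SE, adjusted p = 0.00103), -0.17 ± 0.05 in UT-7 (adjusted p = 0.00663) and -0.32 ± 0.05 in UCSD-AML1 (adjusted p = 1.23e-06). TF-1 cyclocreatine replicate 1 gave the lowest value of its group, and without it the TF-1 change was -0.13 (adjusted p = 0.00630). PRKAA2, which encodes alpha-2, known from muscle, had 0 to 6 counts in each library. Its highest value was 0.432 CPM, in a UT-7 cyclocreatine library. No fold is given for it, and its ratio to PRKAA1 had exact permutation p-values of 0.171 for TF-1, 0.314 for UT-7 and 0.171 for UCSD-AML1 between cyclocreatine and vehicle.

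**Figure D3:**
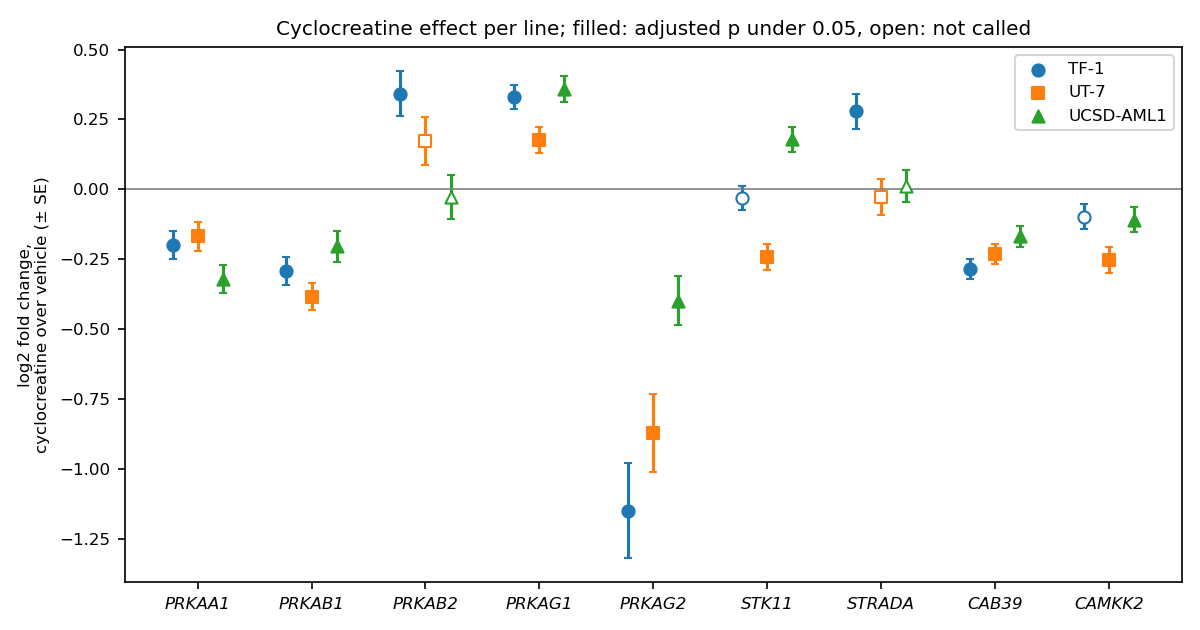
Log2 fold change of cyclocreatine over vehicle (y axis) for the 9 tested genes, by line, with bars of 1 SE. Filled symbols have an adjusted p under 0.05. PRKAG2 lies lowest in all 3 lines, PRKAG1 is the one gene above 0 and filled in all of them, and STK11 lies on opposite sides of 0 in UT-7 and UCSD-AML1.

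The LKB1 complex did not move as a unit. CAB39 fell in all 3 lines. It had 212, 231, 231 and 229 CPM with cyclocreatine in TF-1, against 269, 285, 280.4 and 267 CPM with vehicle. CAB39 in UT-7 stood at 232, 239, 232 and 231 CPM with cyclocreatine and at 280.4, 271, 269 and 277 CPM with vehicle. UCSD-AML1 had 131, 124, 136 and 135 CPM of CAB39 with cyclocreatine and 144, 145, 155 and 146 CPM with vehicle. No cyclocreatine library reached a vehicle library of its line. CAB39 changed by -0.28 ± 0.04 on the log2 scale in TF-1 (SE, adjusted p = 1.71e-08), by -0.23 ± 0.04 in UT-7 (adjusted p = 1.75e-06) and by -0.17 ± 0.04 in UCSD-AML1 (adjusted p = 4.33e-04). Without TF-1 cyclocreatine replicate 1 the TF-1 value was -0.25 (adjusted p = 7.09e-10).

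STRADA, the pseudokinase that activates LKB1, rose in TF-1. It had 31.3, 33.2, 30.0 and 33.8 CPM with cyclocreatine there, against 28.8, 23.9, 25.7 and 27.6 CPM with vehicle, without overlap. The log2 fold change was 0.28 ± 0.06 (SE, adjusted p = 2.54e-04), and 0.29 without TF-1 cyclocreatine replicate 1 (adjusted p = 1.06e-04). STRADA averaged 33.5 ± 0.3 CPM with cyclocreatine and 34.1 ± 0.8 CPM with vehicle in UT-7 (SD, n = 4 each), and the 95% interval of the log2 fold change was -0.15 to 0.10 (adjusted p = 0.770). In UCSD-AML1 it averaged 49.9 ± 2.8 CPM with cyclocreatine and 49.5 ± 3.0 CPM with vehicle, with an interval of -0.10 to 0.13 (adjusted p = 0.900). Groups overlapped in both of these lines.

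STK11, which encodes LKB1 itself, fell in UT-7 and rose in UCSD-AML1. UT-7 libraries had 77.7, 75.2, 70.8 and 77.3 CPM with cyclocreatine, against 86.8, 93.1, 88.5 and 87.7 CPM with vehicle. UCSD-AML1 libraries had 99.96, 103, 101 and 101 CPM of STK11 with cyclocreatine, against 92.4, 93.5, 86.1 and 85.6 CPM with vehicle. Neither pair of groups overlapped, and the directions were opposite. The log2 fold change was -0.24 ± 0.05 in UT-7 (SE, adjusted p = 2.86e-05) and 0.18 ± 0.04 in UCSD-AML1 (adjusted p = 0.00107). In TF-1, STK11 had 106, 96.9, 105 and 107 CPM with cyclocreatine and 103, 102, 108 and 111 CPM with vehicle, overlapping, with an interval of -0.12 to 0.06 (adjusted p = 0.553). An alternative chosen after seeing the data removed each library's trend with GC content. The trend was fitted to log2 CPM less each gene's mean over the libraries of all lines. The UCSD-AML1 value then became -0.02 (adjusted p = 0.802), while the UT-7 value stayed at -0.23 (adjusted p = 5.12e-05). The TF-1 value was called lower when libraries were scaled by their totals alone (-0.11, adjusted p = 0.0216).

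CAMKK2, the calcium-dependent AMPK kinase, fell in UT-7. It had 56.8, 56.8, 62.7 and 56.7 CPM with cyclocreatine there, against 69.2, 70.6, 68.6 and 69.1 CPM with vehicle, without overlap. The log2 fold change in UT-7 was -0.25 ± 0.05 (SE, adjusted p = 1.79e-05). In UCSD-AML1, CAMKK2 had 71.8, 76.9, 74.2 and 75.8 CPM with cyclocreatine and 79.4, 80.0, 84.6 and 78.2 CPM with vehicle, again without overlap. Its change there was -0.11 ± 0.04 (adjusted p = 0.0451), a call at the edge of the threshold. The call was lost without vehicle replicate 1 (adjusted p = 0.0579), 2 (0.0652) or 3 (0.161), and without cyclocreatine replicate 1 (0.137), 3 (0.0871) or 4 (0.0580). In TF-1, CAMKK2 averaged 60.7 ± 1.5 CPM with cyclocreatine and 64.9 ± 2.2 CPM with vehicle (SD, n = 4 each), -0.10 on the log2 scale (adjusted p = 0.0633). That difference was called without vehicle replicate 1 (adjusted p = 0.0449), with limma-voom (0.0470), with DESeq2 (0.0192), with library totals alone (8.39e-04) and with the GC trend removed (0.0290).

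The lines were then compared in how far each gene responded, as the difference between the log2 fold changes of 2 lines. Between TF-1 and UT-7, 2 of the 9 members were called, beside 27.5% of all tested genes. These were STRADA (difference 0.31 ± 0.09 SE, adjusted p = 0.00851), and STK11 (0.21 ± 0.06, adjusted p = 0.0107). PRKAB2 was called as well without TF-1 cyclocreatine replicate 1 (difference 0.27, adjusted p = 0.0325), and CAMKK2 without TF-1 vehicle replicate 2 (0.17, adjusted p = 0.0488) or UT-7 cyclocreatine replicate 3 (0.19, adjusted p = 0.0317). With the GC trend removed, the STK11 difference had an adjusted p of 0.0544. The fall of PRKAG2 did not differ detectably between TF-1 and UT-7, where the interval of the difference ran from -0.73 to 0.17 (adjusted p = 0.386).

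Between TF-1 and UCSD-AML1, 4 members were called, beside 29.1% of all tested genes. PRKAG2 fell further in TF-1 (difference -0.75 ± 0.19 SE, adjusted p = 0.00291), and this held in every alternative run, with adjusted p-values from 0.00118 to 0.0117. PRKAB2 (0.37 ± 0.11, adjusted p = 0.0117) and STRADA (0.27 ± 0.09, adjusted p = 0.0161) were higher in TF-1 relative to UCSD-AML1, and neither was called when libraries were scaled by their totals alone (adjusted p = 0.0552 for PRKAB2 and 0.0974 for STRADA). The STK11 difference was -0.21 ± 0.06 (adjusted p = 0.00856), and -0.05 with the GC trend removed (adjusted p = 0.576). PRKAA1 was called without TF-1 cyclocreatine replicate 1 (difference 0.19, adjusted p = 0.00458) and CAB39 without UCSD-AML1 cyclocreatine replicate 2 (-0.14, adjusted p = 0.0452). The CAB39 difference, -0.12 with an adjusted p of 0.0931 over all libraries, was also called with DESeq2 (adjusted p = 0.0438), with library totals alone (0.00608) and with the GC trend removed (0.00482).

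Between UT-7 and UCSD-AML1, 3 members were called, beside 23.0% of all tested genes. STK11 differed by -0.42 ± 0.06 (SE, adjusted p = 2.64e-06), and by -0.21 with the GC trend removed (adjusted p = 0.0121). The PRKAG2 difference of -0.47 ± 0.17 had an adjusted p of 0.0351, and the PRKAG1 difference of -0.18 ± 0.07 an adjusted p of 0.0418. Both were close to the threshold. The PRKAG2 call was lost without UT-7 vehicle replicate 1 or 4, UT-7 cyclocreatine replicate 1, 2 or 4, UCSD-AML1 vehicle replicate 2 or 4, or UCSD-AML1 cyclocreatine replicate 1, 2 or 4. Over all alternatives its adjusted p ran from 0.00915 to 0.123. The PRKAG1 call was lost without UT-7 vehicle replicate 1 or 4, UT-7 cyclocreatine replicate 3 or 4, UCSD-AML1 vehicle replicate 1 or 2, or UCSD-AML1 cyclocreatine replicate 1, 2 or 3, with adjusted p-values from 0.0123 to 0.224 over all alternatives. PRKAB1 was called without UT-7 cyclocreatine replicate 1 (-0.21, adjusted p = 0.0461) or UCSD-AML1 vehicle replicate 3 (-0.21, adjusted p = 0.0496), and CAMKK2 without UT-7 cyclocreatine replicate 3 (-0.18, adjusted p = 0.0445).

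**Figure D4:**
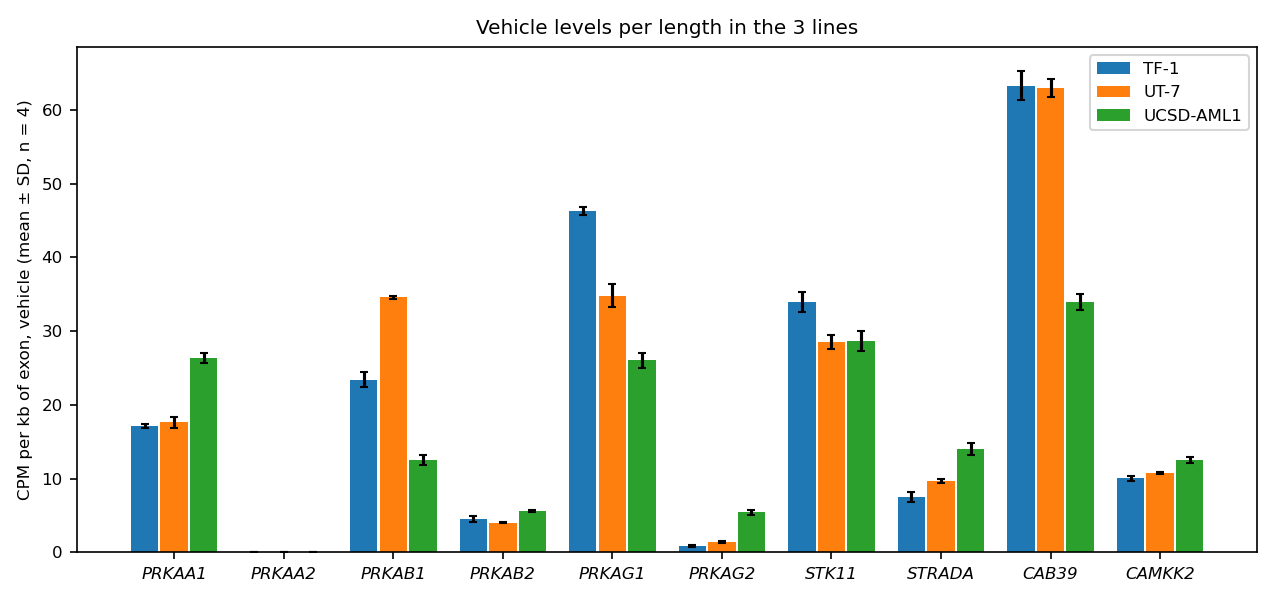
Vehicle levels of the 10 genes as TMM-scaled CPM per kb of exon (y axis, from 0), with bars for the mean of 4 libraries and error bars for the SD, by line. CAB39 is the tallest in all 3 lines, PRKAA2 is too low to be seen, and PRKAG2 is higher in UCSD-AML1 than in TF-1 or UT-7.

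In vehicle libraries the lines differed in the make-up of these genes. Levels of different genes are compared here per kb of exon, the joined exon length of GENCODE v29, from 1.937 kb for PRKAG1 to 9.354 kb for PRKAA2. CAB39 was the highest of the 10 in vehicle libraries of each line, at 63.3 ± 2.0 CPM per kb for TF-1, 63.0 ± 1.2 for UT-7 and 34 ± 1.1 for UCSD-AML1 (SD, n = 4 each). PRKAG1 followed in TF-1 and UT-7, at 46.2 ± 0.5 and 34.8 ± 1.5 CPM per kb, beside 34.6 ± 0.2 for PRKAB1 in UT-7, within the spread of the PRKAG1 value. In UCSD-AML1 the next genes were STK11 at 28.6 ± 1.3, PRKAA1 at 26.3 ± 0.7 and PRKAG1 at 26.1 ± 1.0 CPM per kb, the last pair within their spread. PRKAG2 was the lowest tested member in every line, at 0.831 ± 0.116 for TF-1, 1.43 ± 0.18 for UT-7 and 5.41 ± 0.28 for UCSD-AML1, where PRKAB2 stood beside it at 5.61 ± 0.12 CPM per kb.

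Vehicle levels of the same gene were tested between lines. Of the 9 tested members, 6 differed between TF-1 and UT-7, 9 between TF-1 and UCSD-AML1 and 8 between UT-7 and UCSD-AML1. The shares of all tested genes were 79.7% for TF-1 against UT-7, 84.0% for TF-1 against UCSD-AML1 and 81.5% for UT-7 against UCSD-AML1, so the members differed about as often as other genes. PRKAG2 had the largest differences, with vehicle levels lower by 2.70 ± 0.11 on the log2 scale in TF-1 than in UCSD-AML1 (SE, adjusted p = 1.53e-23) and lower by 1.92 ± 0.10 in UT-7 than in UCSD-AML1 (adjusted p = 9.99e-20). TF-1 and UCSD-AML1, between which the response of PRKAG2 differed, also had its lowest and highest vehicle level, and 3 lines are too few to test a relation. PRKAB1 ran the other way and was higher by 1.47 ± 0.05 in UT-7 (adjusted p = 4.16e-26) and by 0.91 ± 0.05 in TF-1 (adjusted p = 6.01e-19) than in UCSD-AML1. CAB39 was higher by 0.90 ± 0.04 in TF-1 and by 0.89 ± 0.04 in UT-7 than in UCSD-AML1, and PRKAG1 by 0.83 ± 0.05 in TF-1 and by 0.42 ± 0.05 in UT-7. STRADA was lower in TF-1 than in UCSD-AML1 (log2 difference -0.90 ± 0.06), and so was PRKAA1 (-0.62 ± 0.05). Between TF-1 and UT-7, PRKAA1 (adjusted p = 0.405), PRKAB2 (0.0777) and CAB39 (0.889) were not called, and the same held for STK11 between UT-7 and UCSD-AML1 (0.895). PRKAB2 was called between TF-1 and UT-7 without TF-1 vehicle replicate 1 (adjusted p = 0.0420) or 4 (0.0472). The lower CAMKK2 level in TF-1 than in UT-7 (-0.10, adjusted p = 0.0486) was lost without TF-1 vehicle replicate 1, 3 or 4, or any 1 UT-7 vehicle replicate, with adjusted p-values from 0.0548 to 0.135 in those fits.

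The paralog ratios also told the lines apart at vehicle. The log2 ratio of PRKAG2 over PRKAG1 was lower by 3.51 in TF-1 than in UCSD-AML1 and by 2.33 in UT-7 than in UCSD-AML1, and the ratio of PRKAB2 over PRKAB1 was lower by 1.23 in TF-1 and by 1.95 in UT-7 than in UCSD-AML1. TF-1 and UT-7 differed by -1.18 in the gamma ratio and by 0.72 in the beta ratio. All 6 had the smallest exact permutation p, 0.0286 (adjusted p = 0.0429 over 9 tests).

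The genes whose pattern was most like that of a member were found by Pearson's r of log2 CPM over the 24 libraries, after each line's mean was taken off. This is a description, since the libraries of all lines fall into the same cyclocreatine and vehicle groups and share their scaling, so any gene that moves with treatment in every line scores high. PRKAG2 was most like DDX46 (r = 0.96), PARP14 (r = 0.96) and PPP3R1 (r = 0.95), of 8822 genes compared. PRKAB1 was most like SRXN1, PTPLAD1 and DDX18 (r = 0.95 each), and PRKAG1 was close to HDGF and SMG9 (r = 0.94 each). PARP14 had log2 fold changes of -1.22 for TF-1, -0.82 for UT-7 and -0.31 for UCSD-AML1, close in size and order to those of PRKAG2, whereas those of DDX46 were smaller, at -0.42, -0.32 and -0.32 in TF-1, UT-7 and UCSD-AML1.

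The wider pathway was described with 4 lists, also chosen with earlier results of these data known. Their counts are to be read beside the shares of all tested genes, which were 26.7% higher and 29.3% lower in TF-1, 22.5% higher and 23.3% lower in UT-7, and 19.1% higher and 21.3% lower in UCSD-AML1. Of 5 paralogs of the members and other upstream kinases, 4 were tested. MAP3K7, which encodes TAK1 and can act upstream of AMPK, rose in all 3 lines (log2 fold change 0.14 ± 0.05 SE for TF-1, 0.25 ± 0.05 for UT-7 and 0.12 ± 0.05 for UCSD-AML1). The MAP3K7 groups overlapped in TF-1. The CAB39 paralog CAB39L rose by 0.50 ± 0.15 in TF-1 (adjusted p = 0.00433), opposite to CAB39. CAB39L averaged 5.45 CPM with cyclocreatine and 3.93 CPM with vehicle there, and the groups overlapped. The STRADA paralog STRADB rose by 0.20 in UT-7 (adjusted p = 0.0134), also with overlap, and CAMKK1 fell by 0.51 ± 0.11 in UT-7. In all, 2 of the 4 rose in TF-1, 2 rose and 1 fell in UT-7, and 1 rose in UCSD-AML1, with median log2 fold changes of 0.10, 0.22 and 0.06 in TF-1, UT-7 and UCSD-AML1. The median over all tested genes was -0.01 for TF-1, 0 for UT-7 and -0.00455 for UCSD-AML1.

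LKB1 also phosphorylates a family of AMPK-related kinases, of which 9 of 12 were tested. NUAK1, among the 9, averaged 0 CPM in TF-1 and UT-7. It could not be called in those lines but enters their counts and medians. In TF-1, 2 rose and 3 fell (median 0.06), in UT-7, 4 rose (median 0.29), and in UCSD-AML1, 3 rose and 1 fell (median 0.07). The TF-1 counts lay near the shares of all genes, and the counts of risen genes in UT-7 and UCSD-AML1 lay above them. MARK2, a kinase of microtubule-associated proteins, rose in all 3 lines (0.33 ± 0.06 SE for TF-1, 0.16 ± 0.06 for UT-7 and 0.27 ± 0.05 for UCSD-AML1). The MARK2 groups overlapped in UT-7. BRSK1 averaged 3.51 ± 1.09 CPM with cyclocreatine and 6.80 ± 1.71 CPM with vehicle in TF-1 (SD, n = 4 each), a log2 fold change of -0.94 ± 0.17 (adjusted p = 1.01e-05). It was not called in UT-7 or UCSD-AML1. In UT-7 its value had the other sign, 0.34 ± 0.17 (adjusted p = 0.0956), and the groups did not overlap. SIK3 fell by 0.23 in TF-1 and rose by 0.31 in UT-7, and the difference of -0.53 ± 0.09 between these lines was called (adjusted p = 1.26e-05).

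The list of the FLCN complex, lysosomal docking factors and AMPK phosphatases had 8 tested genes, of which 2 rose and 1 fell in TF-1, 3 rose in UT-7, and 1 rose and 1 fell in UCSD-AML1, with medians of 0.02 for TF-1, 0.13 for UT-7 and -0.05 for UCSD-AML1. FLCN encodes folliculin, which binds AMPK through the FNIP proteins. It averaged 47.0 ± 1.5 CPM with cyclocreatine and 29 ± 0.8 CPM with vehicle in UCSD-AML1 (SD, n = 4 each), a rise of 0.70 ± 0.05 on the log2 scale (adjusted p = 1.00e-13). FLCN also rose by 0.24 ± 0.05 in UT-7 and 0.13 ± 0.05 in TF-1, and the response was smaller in TF-1 than in UCSD-AML1 (difference -0.57 ± 0.07, adjusted p = 1.42e-07) and in UT-7 than in UCSD-AML1 (-0.46 ± 0.07, adjusted p = 5.81e-06). FNIP2 fell by 0.66 ± 0.10 in TF-1 (adjusted p = 6.26e-07).

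Of 31 genes whose proteins AMPK phosphorylates, 30 were tested. In TF-1, 6 rose and 13 fell (median -0.10), in UT-7, 8 rose and 11 fell (median -0.02), and in UCSD-AML1, 3 rose and 10 fell (median -0.05). The share that rose was below that of all genes in TF-1 and UCSD-AML1 and somewhat above it in UT-7, and the share that fell was above it in all 3 lines, none of which was tested. TXNIP, an inhibitor of glucose uptake, rose by 0.79 ± 0.04 in TF-1, by 1.32 ± 0.04 in UT-7 and by 1.18 ± 0.04 in UCSD-AML1 on the log2 scale (SE). HDAC5, a class IIa histone deacetylase, changed by -1.32 ± 0.08 in TF-1, by -0.95 ± 0.06 in UT-7 and by -0.61 ± 0.05 in UCSD-AML1. SREBF1, the transcription factor of lipid synthesis SREBP-1, changed by -0.83 ± 0.04 in TF-1, by -0.91 ± 0.04 in UT-7 and by -0.37 ± 0.04 in UCSD-AML1. PFKFB2, which makes and breaks down fructose 2,6-bisphosphate, averaged 7.28 ± 0.59 CPM with cyclocreatine and 33.7 ± 2.2 CPM with vehicle in UCSD-AML1 (SD, n = 4 each), a change of -2.21 ± 0.09 (SE), beside -0.99 ± 0.08 in TF-1 and -0.35 ± 0.07 in UT-7. These values are RNA levels of the substrates and say nothing of their phosphorylation.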

How the data were processed

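RNA of 24 libraries (3 lines, cyclocreatine or vehicle, 4 libraries per group) was analysed from 1 file per library. The authors deposited raw read counts per RefSeq symbol. Per the submitters' processing notes the tools were FastQC, RSEM and TopHat2 and the builds hg19 and GRCh37. No source used here gives versions, roles or strand use. Libraries were not pooled, and counts of all 36 replicate pairs differed beyond sampling noise (chi-square per degree of freedom 1.29 to 19.3). Library totals are given with the results.

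The members and lists were chosen with earlier results of these data known. Counts were analysed with edgeR 4.0.16 (R 4.3.3): filterByExpr (smallest count 10, smallest total 15) kept 14588 genes, with TMM scaling and 1 group-means model of all 24 libraries (18 residual degrees of freedom, median biological coefficient of variation 0.0578). Contrasts, 9 in all, covered the effect in each line, the differences of effects and the vehicle levels between lines, called at an adjusted p under 0.05. Log2 CPM for the principal components, the pattern correlations, the replicate residuals and the trend removal used a prior count of 2. Fold changes are those of edgeR's fit at its default setting. Intervals are 95%, and paralog ratios used log2(CPM + 0.1) with exact permutation tests. Exon lengths came from GENCODE v29 (GRCh38), and promoters from RefSeq, where 9 of the 10 members matched. Named genes were all members, up to 4 called genes per list and line with the smallest p (at least 1 CPM), list genes called between lines, and for the 3 members with the largest mean effect the 3 genes most alike (at least 5 CPM); a few of these are not reported here. Alternatives used DESeq2 1.42.0, limma 3.58.1, other scalings, no filter, only the lines compared, a replicate block, each library left out, and a GC or length trend removed (loess span 0.3, over the 93.2% of tested genes with values; chosen after seeing the data). The fit was tested on simulated counts.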

Additional observations from a re-analysis of the deposited data

Results flagged for a closer look

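In 5 of the 66 groups of 4 libraries examined, 1 library lay far from the others by Dixon's criterion, which chance meets in about 1 group in 20. PRKAG2 stood at 16.7 CPM in UCSD-AML1 cyclocreatine replicate 3, below the other 3. CAB39 stood at 212 CPM in TF-1 cyclocreatine replicate 1, the library that also stands apart over all genes, and at 239 CPM in UT-7 cyclocreatine replicate 2, above the others. CAMKK2 stood at 62.7 CPM in UT-7 cyclocreatine replicate 3, above the others. The log2 ratio of PRKAB2 over PRKAB1 stood at -0.087 in UCSD-AML1 cyclocreatine replicate 1, above the others.

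By edgeR's test of the difference, 5 members were called in any of the pairs of lines. The share of all tested genes called in any of the pairs was not computed. Single pairs had 27.5% of all tested genes called for TF-1 against UT-7, 29.1% for TF-1 against UCSD-AML1 and 23.0% for UT-7 against UCSD-AML1. STK11 differed in all 3 pairs, by 0.21 for TF-1 minus UT-7, -0.21 for TF-1 minus UCSD-AML1 and -0.42 for UT-7 minus UCSD-AML1 on the log2 scale. With the GC trend removed, these STK11 values became 0.16, -0.05 and -0.21, and only the last was still called. STRADA differed by 0.31 for TF-1 minus UT-7 and by 0.27 for TF-1 minus UCSD-AML1. PRKAG2 differed by -0.75 for TF-1 minus UCSD-AML1 and by -0.47 for UT-7 minus UCSD-AML1. PRKAB2 differed by 0.37 for TF-1 minus UCSD-AML1, and PRKAG1 by -0.18 for UT-7 minus UCSD-AML1. The PRKAG2 and PRKAG1 calls between UT-7 and UCSD-AML1 were lost without the filter, with the replicate block and with several single libraries left out. The PRKAB2 and STRADA calls between TF-1 and UCSD-AML1 were lost with library totals alone.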

How the results depend on the processing

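PRKAA1, PRKAB1, PRKAG1, PRKAG2 and CAB39 kept their direction and their call in each line under every alternative run. Counts of members called moved by more than 1.5 times as follows, and the causes were not tested. In UT-7, 2 rose when only the lines compared were fitted or a length trend was removed. With the GC trend removed, 1 rose in UCSD-AML1 and 1 was higher between TF-1 and UT-7. With library totals alone, 0 were higher between TF-1 and UCSD-AML1 in edgeR's test (PRKAB2 had an adjusted p of 0.0552 and STRADA of 0.0974). Between UT-7 and UCSD-AML1, 5 were lower with library totals alone, 1 without the filter, and 2 were higher and 5 lower with only the lines compared. With the replicate block 1 was lower there: PRKAG1 (adjusted p = 0.0686) and PRKAG2 (0.0688) were lost, as was CAMKK2 in UCSD-AML1 (0.0770). The numbers share nothing in the labels. Same-numbered residuals correlated at -0.05 to -0.004 in TF-1, -0.03 to 0.007 in UT-7 and -0.01 to 0.07 in UCSD-AML1, and 0, 0 and 2 of 4 libraries correlated best with their own number in TF-1, UT-7 and UCSD-AML1. Leaving out 1 library gave 1 to 4 members lower between UT-7 and UCSD-AML1, 1 of them without UT-7 vehicle replicate 1 or 4, UT-7 cyclocreatine replicate 4, UCSD-AML1 vehicle replicate 2, or UCSD-AML1 cyclocreatine replicate 1 or 2. In UCSD-AML1 the cyclocreatine differences of the ratios ran from 0.14 to 0.21 (PRKAB2 over PRKAB1) and from -0.80 to -0.70 (PRKAG2 over PRKAG1) over the libraries left out.

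Within 1.5 times, TF-1 had 6 members lower in place of 4 with library totals alone, where STK11 and CAMKK2 were added, and 5 with DESeq2, limma-voom or the GC trend removed. UCSD-AML1 had 4 lower in place of 5 without the filter, with the replicate block or with the length trend removed.

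Signs turned for small, mostly uncalled values. With the GC trend removed, UCSD-AML1 gave 0.054 for PRKAB2, -0.018 for STK11 and -0.054 for STRADA, and with the length trend removed 0.0027 for PRKAB2. STRADA between UT-7 and UCSD-AML1 was 0.017 with the GC trend removed. CAMKK2 between TF-1 and UCSD-AML1 was -0.0036 with DESeq2 and -0.063 with library totals alone. The vehicle level of CAB39 in TF-1 minus UT-7 was -0.070 with library totals alone, -0.0097 without the filter, -0.0072 with only the lines compared and -0.0068 with the GC trend removed. The vehicle level of STK11 in UT-7 minus UCSD-AML1 was 0.017 with DESeq2, 0.028 with library totals alone, 0.061 with upper-quartile scaling, 0.0091 without the filter, 0.023 with only the lines compared and 0.12 with the GC trend removed (adjusted p = 0.0121). With log2(CPM + 1), the ratio of PRKAA2 over PRKAA1 turned to 0.48 for TF-1 minus UCSD-AML1 at vehicle (permutation test, adjusted p = 0.0321). This setting kept the sign of 2 other differences of that ratio and made them called. UT-7 minus UCSD-AML1 at vehicle was 0.52 (adjusted p = 0.0321), against 0.27 with CPM + 0.1. Cyclocreatine minus vehicle in UCSD-AML1 was 0.38 (adjusted p = 0.0367), against 0.60 with CPM + 0.1. PRKAA2 is near 0 in all of these groups, at most 0.178 CPM on average. With 1 CPM added, the ratio therefore follows mostly PRKAA1 and tells little of PRKAA2. Over the libraries left out, sign also turned for STRADA in UCSD-AML1 (-0.016 to 0.043), PRKAA1 between TF-1 and UT-7 (-0.088 to 0.038; above 0 without TF-1 cyclocreatine replicate 1), CAMKK2 between TF-1 and UCSD-AML1 (-0.012 to 0.030) and the vehicle levels of CAB39 in TF-1 minus UT-7 (-0.0095 to 0.021) and STK11 in UT-7 minus UCSD-AML1 (-0.030 to 0.013). Depth limits PRKAA2, and the TF-1 values of PRKAG2.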
